A study of Mus musculus with 15 samples.

Results

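The unfolded protein response, protein folding in the endoplasmic reticulum (ER) and protein translocation into it were followed through 49 genes, taken by symbol from the 21669 genes with a symbol in the deposited RNA-seq table. The genes are listed by known function, without a threshold on their values, and they fall into 10 branches: stress sensors, effectors of PERK and stress signalling, the Hsp70 and Hsp90 chaperone system, secreted ER stress proteins, protein disulfide isomerases, lectin chaperones, prolyl isomerases, ER-associated degradation, the translocon and signal peptidase. The libraries come from splenic B cells of wild-type female C57BL/6J mice, 6 to 9 weeks old by the study's methods. Naive B cells (nB) were depleted of CD43+ cells and not cultured. Activated B cells (actB, sorted as B220+GL7+CD138-) and plasmablasts (Pb, sorted as CD138+) came from cultures of such cells kept for 3 days with the bacterial product LPS, IL2 and IL5. The cultures received either the vehicle DMSO or GSK343 at 2 μM, a small molecule that inhibits EZH2, the enzyme that places the repressive H3K27me3 mark. Labels of the Pb libraries with GSK343 name IL6 where the others name IL5, so if they hold, drug and cytokine cannot be told apart in Pb. Each of the 5 groups was deposited as 3 libraries of bulk RNA, and a change in level per cell and a change in which cells were collected cannot be told apart.

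A secreted protein enters the ER through the Sec61 channel, loses its signal peptide, and is folded there by chaperones, disulfide isomerases and lectins, while proteins that fail to fold are sent back to the cytosol for degradation. When unfolded proteins build up, 3 kinds of membrane sensor respond. IRE1 (*Ern1*) splices the mRNA of the transcription factor XBP1, PERK (*Eif2ak3*) slows translation and favours ATF4 and CHOP (*Ddit3*), and ATF6 is cleaved to a transcription factor. Plasma cells, which secrete antibody in bulk, are known to need XBP1 and an enlarged ER.

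Between 19421830 and 26307413 reads were counted per library, so that 3 reads, the most that a count of 0 allows, equal 0.114 to 0.154 RPM, the reads scaled to a common library total. Levels are given as RPKM, which is RPM per kilobase of gene length. For nB, replicates 1 and 2 differed by far less than sampling noise (chi-square per degree of freedom 0.00958 over 14442 genes, 79.5% with identical reads). The same chi-square was at least 3.58 for any other library pair of 1 group. Replicates 1 and 2 of nB were therefore averaged and counted as 1 library named nB 1, which leaves n = 2 for nB and n = 3 elsewhere. All 49 genes passed the filter on low levels (RPKM 1 or more in 3 or more of the 15 columns), as did 11299 genes in all, and were tested. Differences are log2 fold changes of RPKM + 0.25 from limma, fitted over all 14 libraries, with two-sided p-values adjusted by the Benjamini-Hochberg method over all genes tested, and a gene with an adjusted p under 0.05 was called changed. The 8 B cell markers summed to 3943 to 4015 RPKM in nB, 1936 to 2229 in actB with DMSO and 935 to 954 in Pb with DMSO. The 5 plasma cell markers, which include *Sdc1* (the gene of CD138), summed to 164 to 180, 293 to 338 and 2191 to 2238 RPKM in the same groups. The replicate 2 libraries stood apart in actB, with the lowest weights among the 14 libraries (0.273 with DMSO and 0.38 with GSK343) when limma weighted each library by its scatter.

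Several of these genes hold short promoter sequences known to bind the factors of the response. RefSeq promoters (GRCm38.p6, 250 bases before to 50 bases after each start) were found for 41 of the 49 genes, and those of *Manf*, *Ssr2*, *Sec61a1*, *Hyou1*, *Sec11c*, *Atf6*, *Derl1* and *Spcs3* were not in the table. The ER stress element (ERSE, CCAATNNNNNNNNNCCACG on either strand), which ATF6 and XBP1 bind next to the CCAAT-binding factor NF-Y, was present in 9 of the 41 (22%), namely *Hspa5*, *Hsp90b1*, *Dnajc3*, *Pdia6*, *Calr*, *Canx*, *Creld2*, *Syvn1* and *Derl3*, against 37 of all 27025 genes in the table (0.137%). Its shorter form ERSE-II (ATTGGNCCACG) was present in *Dnajb11* and *Herpud1* and in 12 of all genes (0.0444%). The core of the UPR element (TGACGTG) was present in *Hspa5* and *Fkbp11* (2.22% of all genes), the cyclic AMP response element (TGACGTCA) in *Ppp1r15a* (2.03%), and the composite C/EBP-ATF element (TTGCATCA) in *Herpud1* (1.03%). Among the 8964 genes tested that had a promoter, these last 3 elements were in 3.47%, 3.68% and 0.792%, against 4.88%, 2.44% and 2.44% of the 41. ERSE was in 0.178% of them and ERSE-II in 0.0892%. Matches are shown for *Hspa5*, the gene of the main ER chaperone, and for genes called with GSK343 or given in detail below, in the direction in which the motif reads, with the matched letters in capitals and 5 flanking bases on each side. Coordinates are those of the matched letters with their strand. They describe the sequence only, and no binding was measured.
Hspa5, ERSE, chr2:34772025-34772043, + strand: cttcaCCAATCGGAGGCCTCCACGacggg
Hsp90b1, ERSE, chr10:86705638-86705656, - strand: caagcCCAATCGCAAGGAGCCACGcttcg
Hsp90b1, ERSE, chr10:86705533-86705551, + strand: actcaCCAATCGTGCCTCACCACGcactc
Dnajc3, ERSE, chr14:118937827-118937845, + strand: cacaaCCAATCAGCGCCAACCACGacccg
Calr, ERSE, chr8:84847075-84847093, + strand: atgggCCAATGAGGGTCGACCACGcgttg
Canx, ERSE, chr11:50325800-50325818, - strand: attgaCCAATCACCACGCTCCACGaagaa
Creld2, ERSE, chr15:88819520-88819538, - strand: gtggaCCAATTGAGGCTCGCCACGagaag
Derl3, ERSE, chr10:75893242-75893260, - strand: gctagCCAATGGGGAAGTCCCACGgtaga
Dnajb11, ERSE-II, chr16:22857852-22857862, + strand: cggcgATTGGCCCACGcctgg
Fkbp11, UPR element core, chr15:98727621-98727627, + strand: aaagcTGACGTGtttca
Ppp1r15a, cyclic AMP response element, chr7:45526273-45526280, - strand: tccggTGACGTCAgcaca

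Reads of the 49 genes grew at both steps of differentiation. Together they took 8480 and 8107 RPM in the nB libraries, 16014, 15143 and 15852 in actB with DMSO, and 40658, 41911 and 40296 in Pb with DMSO. The 3 groups did not overlap, and the genes thus rose from 0.829% of all reads in nB to 1.57% in actB and 4.10% in Pb. No member was among the 100 genes with the highest RPKM in nB, whereas 3 were in actB with DMSO and 10 in Pb with DMSO. *Hsp90b1*, at 2225 ± 18.4 RPKM (SD, n = 3), was the 2nd highest of all genes in Pb with DMSO, *Calr* the 6th and *Hspa5* the 33rd. The Hsp70 and Hsp90 chaperone system took the most reads of any branch in Pb (12847 ± 301 RPM, SD, n = 3), and the prolyl isomerases the fewest (259 ± 18.2 RPM).

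**Figure D1:**
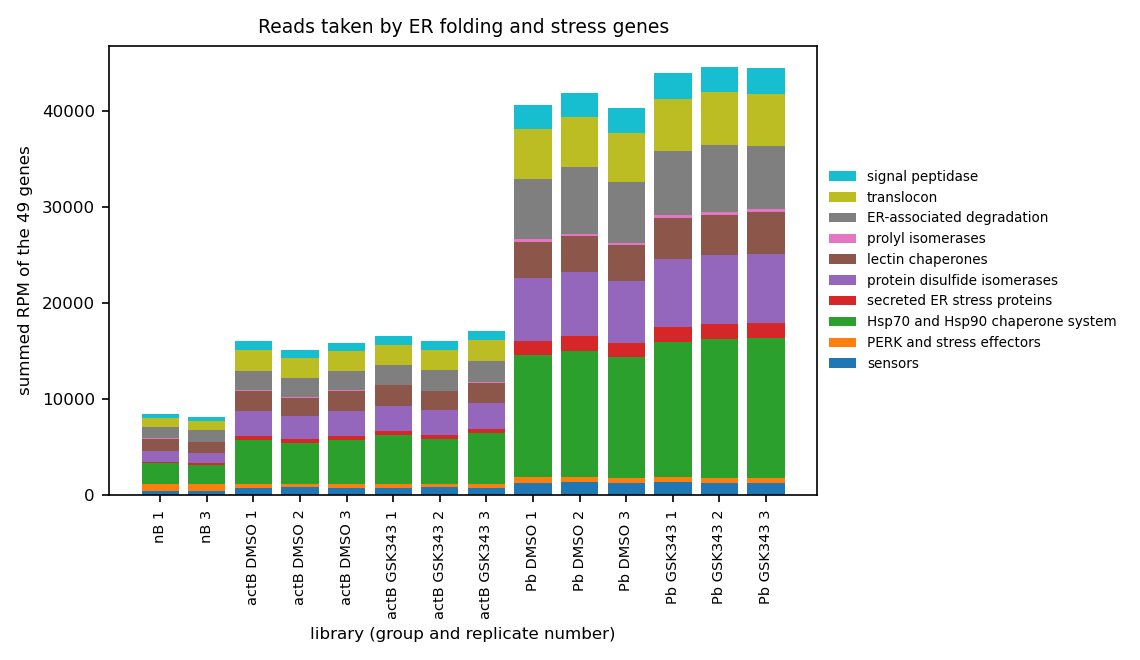
Summed RPM of the 49 genes (vertical axis, from 0) in each of the 14 libraries (horizontal axis), with each bar divided by branch. The nB bars reach 8107 and 8480 RPM, the 6 actB bars 15143 to 17135 and the 6 Pb bars 40296 to 44628.

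Between nB and actB with DMSO, 41 of the 49 genes were called higher and 5 lower by limma, where 40.9% of all genes tested were called higher and 36.3% lower. The median log2 fold change was 1.0 over the 49 genes and 0.053 over all genes. Between actB and Pb with DMSO, 48 were called higher and 1 lower, where 27.3% of all genes were called higher and 42.4% lower, and the median was 1.47 against -0.12 for all genes. With each library scaled to the same median, the split of all calls moved from 39.2% to 49.4% higher, and the counts of the 49 genes stayed at 48 and 1. Between nB and Pb with DMSO, 46 were higher and 3 lower (39.5% and 41.1% of all genes), with a median of 2.49 against -0.022. These comparisons share groups. In all, 40 genes were called higher at both steps, *Trib3* was higher in actB and lower again in Pb, and *Eif2ak3*, *Ddit3*, *Ppp1r15a*, *Dnajb9* and *Pdia5* were lower in actB and higher in Pb. *Atf6b*, *Atf4* and *Sec62* were called at the second step and not at the first.

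**Figure D2:**
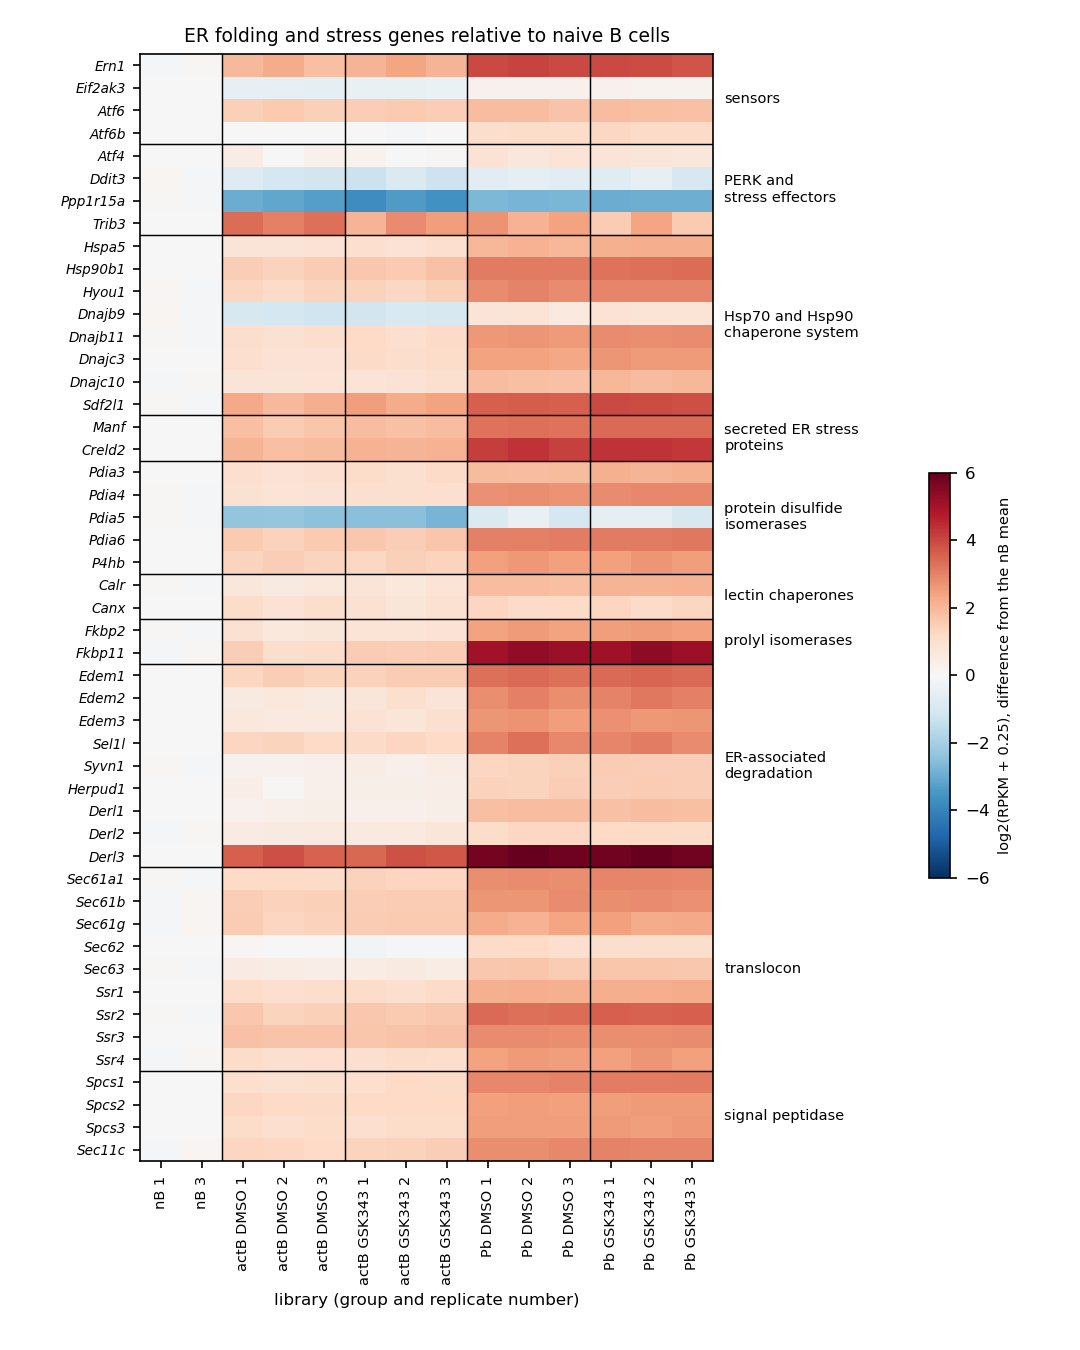
Difference of log2(RPKM + 0.25) from the nB mean (colour, blue lower and red higher) for each of the 49 genes (rows, by branch) in the 14 libraries (columns). Red deepens from actB to Pb in nearly all rows, and the rows of *Ddit3*, *Ppp1r15a* and *Pdia5* stay blue in all cultured libraries.

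The 4 sensors were all higher in Pb than in actB, by unequal amounts. *Ern1*, the gene of IRE1, was at 3.10 and 3.38 RPKM in nB, 13.2, 16.2 and 11.9 in actB with DMSO, and 54.8, 57.6 and 53.8 in Pb with DMSO. The 3 groups were well apart, and each step was a log2 fold change of 2.0 (standard errors 0.12 and 0.11, adjusted p = 1.40e-08 and 8.30e-09 by limma). *Eif2ak3*, the gene of PERK, was at 28.6 and 30.3 RPKM in nB, 20.7, 21.2 and 20.3 in actB, and 35.5, 35.2 and 35.2 in Pb. It was thus lowest in actB, with log2 fold changes of -0.50 ± 0.046 (standard error) and then 0.76 ± 0.041 (adjusted p = 5.20e-07 and 6.05e-09). *Atf6* was at 22.9 and 23.2 RPKM in nB, 63.3, 68.2 and 63.1 in actB, and 83.9, 84.6 and 77.1 in Pb. Most of its rise lay at the first step (1.48 ± 0.057), and the second (0.33 ± 0.051, adjusted p = 7.93e-05) was the smallest of the 4 sensors. *Atf6b*, a close relative of *Atf6*, was at 38.7 and 36.9 RPKM in nB, 36.7, 37.0 and 37.8 in actB, and 79.7, 80.4 and 82.1 in Pb. Its nB and actB libraries overlapped (log2 fold change -0.024, adjusted p = 0.633), and Pb was 2.16-fold above actB (1.11 ± 0.039, adjusted p = 2.10e-10).

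*Xbp1*, the target of IRE1 and not one of the 49 genes, rose from 50.7 ± 0.653 RPKM (SD, n = 2) in nB to 190 ± 6.89 in actB with DMSO and 955 ± 55.7 (n = 3) in Pb with DMSO. Its log2 fold changes were 1.90 and 2.33 (standard errors 0.069 and 0.062, adjusted p = 1.01e-10 and 3.24e-11). The other 3 genes listed as partners of IRE1 were called lower in Pb than in actB, the IRE1 target *Bloc1s1* (-0.63), the tRNA ligase gene *Rtcb* (-0.47), whose product joins the spliced *Xbp1* exons, and *Traf2* (-0.44), which encodes an adaptor of IRE1 signalling. Splicing of *Xbp1* cannot be read from counts per gene.

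Effectors of PERK and stress signalling went their own ways. *Ppp1r15a* encodes GADD34, which returns the phosphatase to eIF2α and lifts the block on translation. Its level was 80.7 and 72.1 RPKM in nB, 9.44, 8.56 and 7.46 in actB with DMSO, and 11.5, 11 and 11.1 in Pb with DMSO. All cultured libraries were far below nB (log2 fold change -3.14 ± 0.10 in actB, adjusted p = 4.04e-11, and -2.74 in Pb), and Pb was a little above actB (0.40 ± 0.092, adjusted p = 0.00205). *Ddit3*, the gene of CHOP, a factor known for promoting death under lasting stress, was at 42.9 and 37.4 RPKM in nB, 23.3, 19.0 and 18.6 in actB, and 24.6, 26.9 and 24.7 in Pb. It was lower in both cultured groups than in nB (-0.98 ± 0.14 in actB and -0.65 in Pb). Its Pb libraries lay above those of actB, but the call at that step (0.32 ± 0.13, adjusted p = 0.0413) was lost without any 1 of the 3 Pb libraries (adjusted p 0.0635 to 0.118) or without actB replicate 2 or 3 (0.109 and 0.132). It also passed to just above the threshold without nB replicate 1 or 3 or Pb GSK343 replicate 1 (0.0511 to 0.0524).

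*Trib3* encodes a pseudokinase that CHOP and ATF4 induce. It stood at 0.487 and 0.447 RPKM in nB, 7.11, 5.64 and 6.89 in actB with DMSO, and 4.34, 2.79 and 3.54 in Pb with DMSO. No group overlapped, and it was the 1 gene of the 49 that was lower in Pb than in actB (-0.85 ± 0.24, adjusted p = 0.00680) after a rise of 3.24 ± 0.27 from nB. *Atf4*, the main translated factor of the PERK branch, was at 156 and 155 RPKM in nB, 209, 153 and 187 in actB, and 285, 253 and 272 in Pb. Its nB and actB libraries overlapped (0.22, adjusted p = 0.0765), and Pb lay above both (0.57 ± 0.095 against actB, adjusted p = 1.56e-04). Exons of *Ddit3* and *Ppp1r15a* overlap genes on the other strand (*Mars* and *Tulp2*) in the mm9 annotation, and use of strand in counting is not stated.

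**Figure D3:**
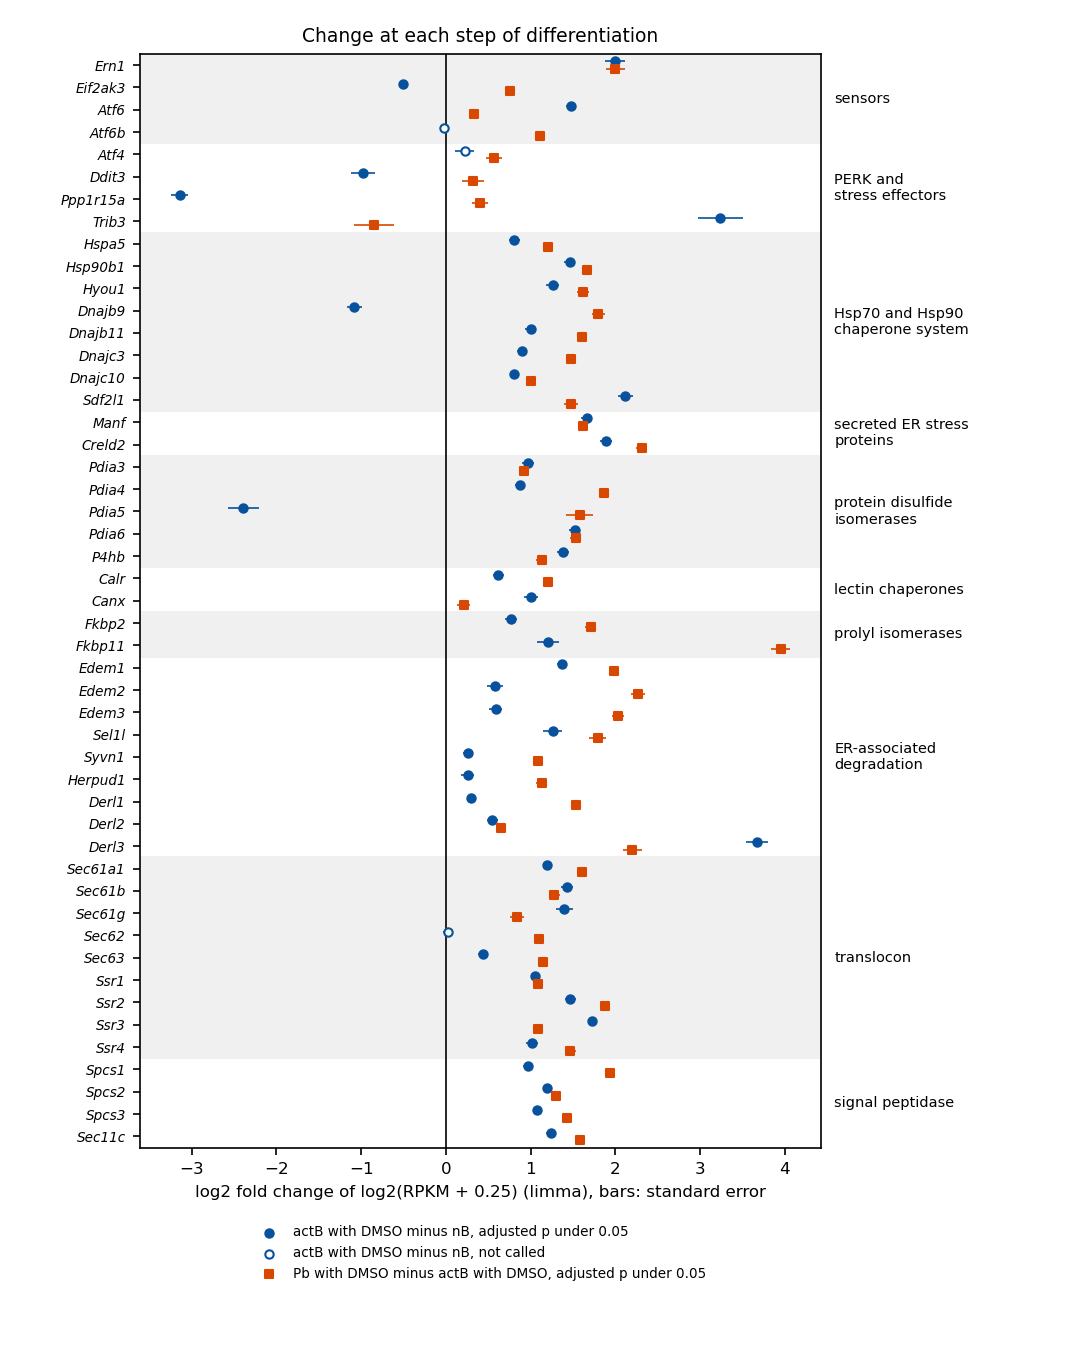
Log2 fold change (horizontal axis) with its standard error for each of the 49 genes (vertical axis, by branch), from nB to actB with DMSO (blue circles) and from actB to Pb with DMSO (orange squares). Open symbols are changes not called. All orange squares but that of *Trib3* (-0.85) lie right of 0, the farthest being *Fkbp11* at 3.95.

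All 8 genes of the Hsp70 and Hsp90 chaperone system were higher in Pb than in actB, with a median log2 fold change of 1.55 and a narrow range, 1.0 for *Dnajc10* to 1.80 for *Dnajb9*. *Hspa5*, which encodes BiP, the ER's main Hsp70 and the brake on the sensors, was at 249 and 236 RPKM in nB, 416, 412 and 444 in actB with DMSO, and 952, 1022 and 963 in Pb with DMSO. *Dnajb9* encodes ERdj4, a BiP partner that represses IRE1, and was at 82.4 and 71.2 RPKM in nB, 38.6, 36.3 and 33.5 in actB, and 130, 136 and 114 in Pb. BiP's gene thus rose at each step (0.81 and 1.21), whereas *Dnajb9* was lowest in actB (-1.08 ± 0.089, adjusted p = 2.09e-07) before its rise in Pb (adjusted p = 1.12e-09). *Dnajc10*, whose product reduces disulfide bonds of proteins bound for degradation, was at 19.9 and 22.1 RPKM in nB, 36.5, 36.1 and 37.8 in actB, and 75.3, 74.0 and 71.7 in Pb. The largest rise of the branch from nB to Pb was that of *Sdf2l1* (12.1-fold), whose product works in a complex with the BiP partner ERdj3. *Hsp90b1*, the gene of GRP94, followed with 8.70-fold and *Hyou1*, an exchange factor of BiP, with 7.36-fold.

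Both secreted ER stress proteins rose at each step. *Creld2*, which encodes a secreted protein induced by ER stress, was at 27.8 and 26.1 RPKM in nB, 110, 93.2 and 100 in actB with DMSO, and 484, 546 and 474 in Pb with DMSO. *Manf*, the gene of a BiP-binding trophic factor, was at 32.6 and 30.7 RPKM in nB, 110, 92.1 and 99.7 in actB, and 309, 315 and 303 in Pb. The groups did not overlap for either gene. They were alike up to actB, and the second step was 2.31 ± 0.067 for *Creld2* and 1.62 ± 0.059 for *Manf* (adjusted p = 4.91e-11 and 2.57e-10).

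Of the 5 protein disulfide isomerases, 4 rose at both steps and *Pdia5* did not. *Pdia4*, an oxidoreductase abundant in secretory cells, was at 141 and 124 RPKM in nB, 246, 234 and 244 in actB with DMSO, and 878, 914 and 855 in Pb with DMSO. *Pdia3*, whose product ERp57 works with the lectin chaperones, was at 145 and 136 RPKM in nB, 286, 256 and 287 in actB, and 532, 509 and 524 in Pb. The genes began at like levels and parted at the second step, which was 1.87 ± 0.051 for *Pdia4* and 0.92 ± 0.061 for *Pdia3* (adjusted p = 3.37e-11 and 3.74e-08). *P4hb*, which encodes the isomerase PDI itself, gave 1.38 and 1.13 at the 2 steps and *Pdia6* 1.52 and 1.53. *Pdia5* was near the limit of what the test admits, at 1.87 and 1.69 RPKM in nB, 0.140, 0.160 and 0.114 in actB, and 0.853, 1.22 and 0.718 in Pb. It reached 1 RPKM in nB and in some Pb libraries and in no actB library.

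The 2 lectin chaperones, which hold glycoproteins until they fold, parted at the second step. *Calr*, the gene of the soluble calreticulin, was at 418 and 378 RPKM in nB, 636, 571 and 624 in actB with DMSO, and 1414, 1441 and 1388 in Pb with DMSO. *Canx*, the gene of the membrane-bound calnexin, was at 94.9 and 91.7 RPKM in nB, 198, 169 and 195 in actB, and 225, 208 and 216 in Pb. *Calr* thus more than doubled from actB to Pb (2.32-fold, log2 fold change 1.21 ± 0.059, adjusted p = 2.78e-09). *Canx* gained 1.16-fold (0.21 ± 0.073, adjusted p = 0.0229), a call that was lost without actB replicate 2 (adjusted p = 0.0999) or Pb replicate 1 (0.0805) and with quantile normalization (0.091, adjusted p = 0.195).

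*Fkbp11* had the largest log2 fold change of the 49 genes from actB to Pb. It encodes an ER prolyl isomerase, an enzyme that turns proline bonds, and was at 2.33 and 2.58 RPKM in nB, 7.32, 5.28 and 5.57 in actB with DMSO, and 87.8, 106 and 96.2 in Pb with DMSO. The lowest Pb library was more than 10 times the highest in actB, and the log2 fold change was 3.95 ± 0.11 (15.5-fold, adjusted p = 4.80e-11). *Fkbp2*, a prolyl isomerase of the same family, was at 29.7 and 27.7 RPKM in nB, 54.4, 44.8 and 48.0 in actB, and 156, 170 and 156 in Pb (1.71 ± 0.067 at the second step).

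Genes of ER-associated degradation rose at both steps in 9 of 9 cases, with medians of 0.58 and 1.79. *Edem2*, which encodes a protein that starts mannose trimming of misfolded glycoproteins, was at 26.9 and 25.6 RPKM in nB, 38.5, 41.5 and 38.3 in actB with DMSO, and 182, 214 and 180 in Pb with DMSO. *Derl2*, one of the derlin genes whose products help proteins leave the ER, was at 12.4 and 13.3 RPKM in nB, 18.2, 18.8 and 19.7 in actB, and 28.1, 30.3 and 31.0 in Pb. These were the largest (2.27 ± 0.084) and the smallest (0.65 ± 0.059) differences of the branch between Pb and actB (adjusted p = 3.00e-10 and 7.44e-07). The derlin genes also started apart: *Derl3* went from 4.10 ± 0.170 RPKM (SD, n = 2) in nB to 55.2 ± 6.41 in actB and 255 ± 26.7 (n = 3) in Pb, which at 58.4-fold was the largest rise of the 49 genes from nB to Pb. *Derl1*, by contrast, started at 40.3 and 39.8 RPKM in nB and reached 143 ± 3.09 (SD, n = 3) in Pb with DMSO. *Edem1* and *Edem3* rose by 1.98 and 2.03 at the second step, the ubiquitin ligase gene *Syvn1* (HRD1) by 1.09, its partner *Sel1l* by 1.79 and *Herpud1* by 1.13. At the first step *Herpud1*, a factor that gathers the degradation machinery, and *Syvn1* rose the least, both by 0.26 (adjusted p = 0.00805 and 0.00148 by limma). That call of *Herpud1* was lost without nB replicate 3 (0.0688) and in the fit of the compared groups alone (0.0596), and with quantile normalization both were lost (0.115 for *Herpud1* and 0.0549 for *Syvn1*, with log2 fold changes of 0.12 and 0.13).

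The 9 translocon genes were all higher in Pb than in actB, with a median of 1.15. *Ssr2*, which encodes the β subunit of the TRAP complex beside the channel, was at 48.9 and 44.5 RPKM in nB, 143, 120 and 127 in actB with DMSO, and 490, 460 and 481 in Pb with DMSO. *Sec61g*, the gene of the channel's γ subunit, was at 24.9 and 29.7 RPKM in nB, 79.8, 67.3 and 70.2 in actB, and 130, 118 and 143 in Pb. They were the largest (1.88 ± 0.062) and the smallest (0.84 ± 0.088) of the branch, and neither gene's groups overlapped. The channel's other subunit genes *Sec61a1* and *Sec61b* rose by 1.61 and 1.28, the TRAP genes *Ssr1*, *Ssr3* and *Ssr4* by 1.09, 1.09 and 1.47, and *Sec63*, which recruits BiP to the channel, by 1.15. *Sec62*, needed for proteins that enter after translation, overlapped between nB and actB (33.8 ± 1.39, n = 2, and 34.4 ± 1.70 RPKM, n = 3) and was at 73.7 ± 4.42 in Pb (2.14-fold, adjusted p = 1.84e-09).

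Signal peptidase, the enzyme that removes signal peptides, is built from the products of the last 4 genes, and all 4 rose at both steps. Their log2 fold changes were 0.97 to 1.24 at the first step and 1.30 to 1.94 at the second. *Spcs1*, an accessory subunit, was at 20.4 and 21.5 RPKM in nB, 43.0, 39.7 and 40.9 in actB with DMSO, and 157, 155 and 164 in Pb with DMSO. *Spcs2* was at 38.9 and 37.7 RPKM in nB, 90.7, 87.4 and 85.0 in actB, and 215, 220 and 214 in Pb. The groups did not overlap for either. The catalytic subunit gene *Sec11c* was the highest of the branch in Pb, at 925 ± 23.5 RPKM (SD, n = 3).

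Other genes of the secretory pathway, in 7 lists of known function beside that of IRE1's partners, mostly shared the direction. From actB to Pb with DMSO, limma called higher 12 of 12 genes of the oligosaccharyltransferase, which attaches N-glycans (0.14 for *Stt3b* to 1.83 for *Ddost*), 8 of 8 genes of the signal recognition particle and its receptor (0.53 for *Srp72* to 1.89 for *Srprb*), and 7 of 8 genes of ER oxidation (0.68 for *Ero1l* to 2.79 for *Txndc5*). It also called higher 7 of 7 genes of glycoprotein trimming (0.59 for *Uggt1* to 2.32 for *Man1b1*), 13 of 14 further genes of ER-associated degradation (up to 1.77 for *Os9*), and 11 of 12 genes of the COPII coat of transport vesicles, led by *Sec24d* (2.29), with *Sec24b* lower (-0.46). The medians of these lists were 0.95 to 1.30, below the 1.47 of the 49 genes. Over all genes tested the median was -0.12, with 27.3% called higher and 42.4% lower. Of 14 tested genes of the integrated stress response, the wider program under eIF2α phosphorylation, 9 were higher, 3 lower and 2 not called, with a median of 0.26. *Nupr1* was the highest (1.68 ± 0.34) and *Atf3*, an early stress factor, the lowest (24.5 ± 6.73 RPKM in actB and 3.24 ± 0.526 in Pb, SD, n = 3, log2 fold change -2.80 ± 0.39, adjusted p = 3.43e-05).

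Genes with and without an ERSE in the promoter had similar medians at these steps. The 9 genes with the element had a median log2 fold change of 1.48 from actB to Pb, between 0.21 for *Canx* and 2.31 for *Creld2*, and the 32 genes without it had 1.22. From nB to Pb the medians were 2.38 and 2.43. The medians are given as a description and were not tested.

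GSK343 against DMSO in actB moved few of the 49 genes past the threshold, and by little. By limma, 3 were called higher and 1 lower, where 8.20% of all genes tested were called higher and 2.16% lower, so that the share of the 49 genes called higher was not above that of all genes. The median log2 fold change was 0.082 over the 49 genes and 0.028 over all genes. At an unadjusted p under 0.05, 14 were higher and 3 lower. The share of all genes at that unadjusted threshold is not given here or below, so such counts have no background beside them. The called genes were *Ppp1r15a*, lower with the inhibitor, and *Hsp90b1*, *Dnajc3* and *Edem3*, higher.

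*Ppp1r15a* was at 9.44, 8.56 and 7.46 RPKM in actB with DMSO and 5.62, 7.07 and 5.89 with GSK343. The highest library with GSK343 lay below the lowest with DMSO, and the log2 fold change was -0.44 ± 0.092 (adjusted p = 0.0112 by limma). The call held without any 1 of these 6 libraries (adjusted p 0.00403 to 0.0495) and in 15 of 16 other settings (4.58e-04 to 0.115), being lost in the fit of the compared groups alone. *Dnajc3*, which encodes p58IPK, an inhibitor of PERK, was at 44.6, 40.4 and 41.2 RPKM with DMSO and 50.2, 46.8 and 49.1 with GSK343. *Hsp90b1* was at 711, 672 and 728 RPKM with DMSO and 796, 760 and 863 with GSK343. For both genes every GSK343 library lay above every DMSO library, at log2 fold changes of 0.21 ± 0.050 and 0.20 ± 0.055 (adjusted p = 0.0207 and 0.0422). *Edem3*, whose product trims mannose on proteins bound for degradation, was at 13.9, 13.4 and 13.6 RPKM with DMSO and 16.4, 14.8 and 17.7 with GSK343 (0.25 ± 0.068, adjusted p = 0.0361), again with no overlap.

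The calls of the 3 rises in actB were sensitive to leaving out a library, and those of *Hsp90b1* and *Edem3* also to the scaling. With any 1 of the 6 actB libraries left out, the log2 fold changes stayed above 0. They were 0.15 to 0.24 for *Hsp90b1*, 0.19 to 0.32 for *Edem3* and 0.18 to 0.25 for *Dnajc3*. *Hsp90b1* and *Edem3* were each lost without any 1 of 5 of the 6 actB libraries (all but GSK343 replicate 2), with adjusted p up to 0.169 and 0.143, and *Dnajc3* without DMSO replicate 3 or GSK343 replicate 1 or 3, with adjusted p up to 0.0765. With each library scaled to the same median, 1 of the 49 genes (*Dnajc3*) was called higher and 2 lower, and the split of all calls moved from 79.1% to 65.1% higher. edgeR's quasi-likelihood test on the reads recovered from the table called 0 higher (7 at an unadjusted p under 0.05) and 3 lower, where 7.32% and 3.81% of all genes were called. The 3 were *Ppp1r15a* (-0.49, adjusted p = 0.00543), *Trib3* (-0.82, adjusted p = 0.0469) and *Sec62*. With the replicate number as a block, in case the numbers pair the samples, limma called 10 higher and 3 lower, where 14.7% and 6.27% of all genes were called. The 10 were *Hsp90b1*, *Dnajc3*, *Sdf2l1*, *Pdia3*, *Edem1*, *Edem2*, *Edem3*, *Syvn1*, *Sec61a1* and *Sec11c*, and the 3 *Ppp1r15a*, *Canx* and *Sec62*. edgeR with the same block called 5 higher and 4 lower, where 14.3% and 12% of all genes were called. The total of 4 calls became 1 without actB DMSO replicate 3 or actB GSK343 replicate 3, 2 without actB GSK343 replicate 1 or Pb GSK343 replicate 3, and 7 without actB GSK343 replicate 2.

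**Figure D4:**
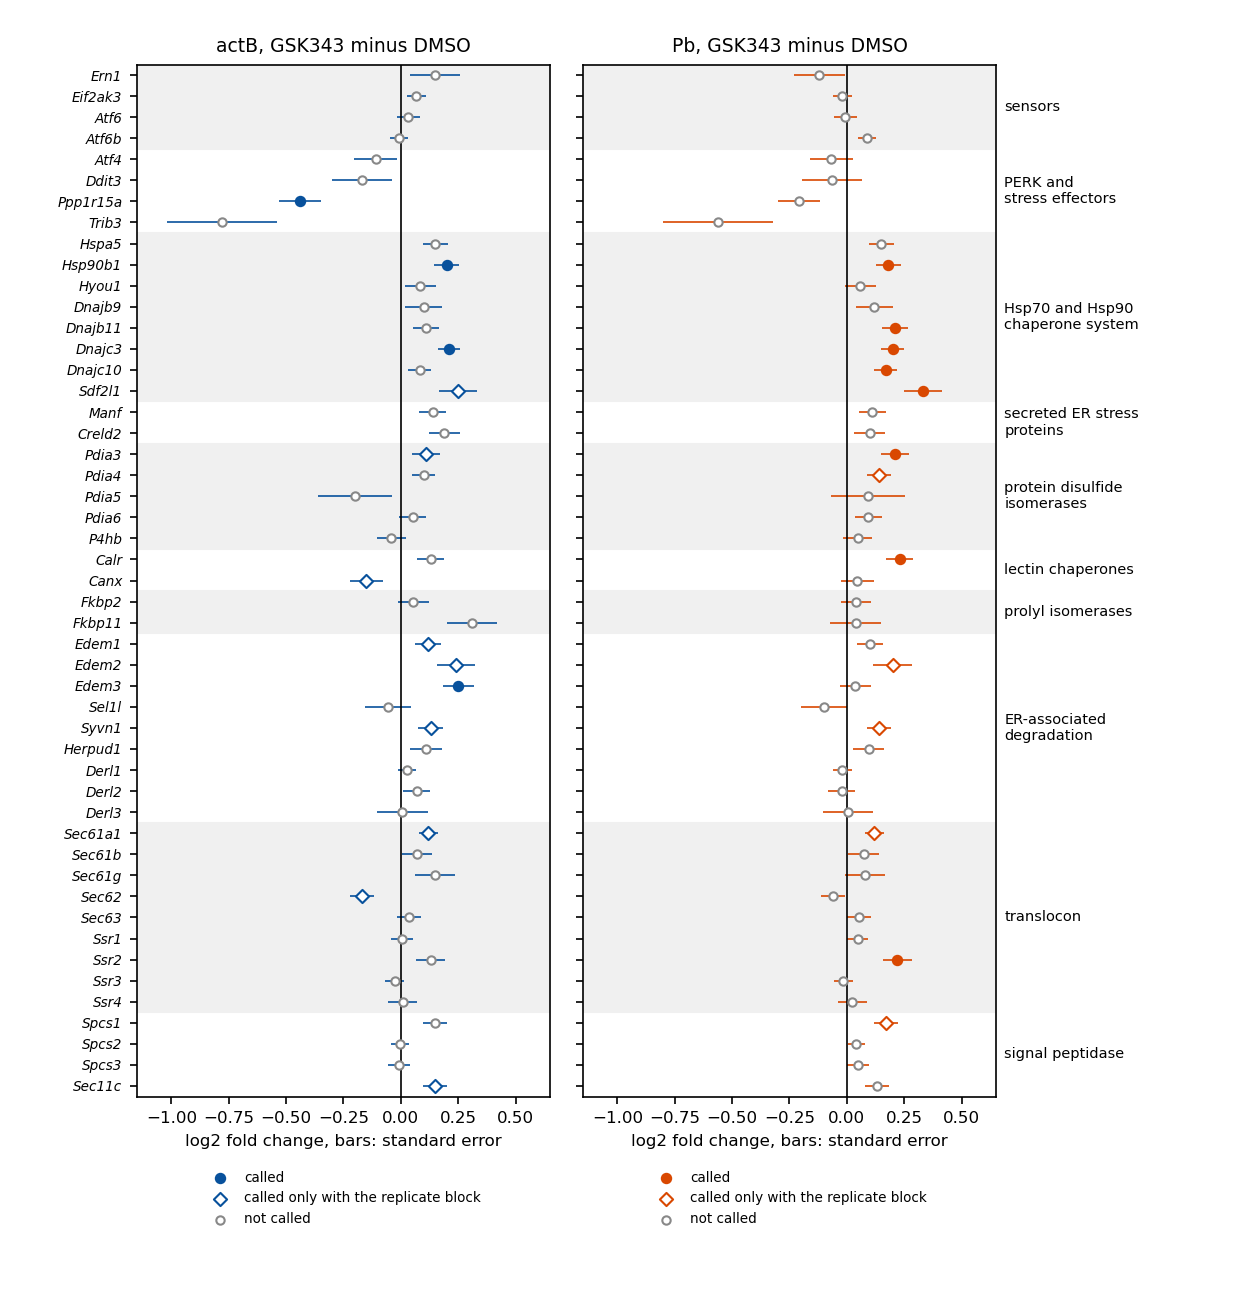
Log2 fold change with its standard error (horizontal axes) of GSK343 against DMSO for the 49 genes (vertical axis, by branch) in actB (left) and Pb (right). Filled circles are genes called by limma, diamonds those called only when the replicate number was a block. The 4 effectors of PERK and stress signalling lie left of 0 and the 8 genes of the Hsp70 and Hsp90 chaperone system right of 0 in both panels.

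In Pb, 8 of the 49 genes were called higher with GSK343 by limma and none lower, where 7.90% of all genes were called higher and 5.0% lower. At an unadjusted p under 0.05, 16 were higher and 2 lower, again without a share of all genes to set beside them. The median log2 fold change was 0.073, and 0.003 over all genes. Of the 8, 5 belong to the Hsp70 and Hsp90 chaperone system (*Hsp90b1*, *Dnajb11*, *Dnajc3*, *Dnajc10* and *Sdf2l1*), and the others were *Pdia3*, *Calr* and *Ssr2*. Their rises were 1.12-fold to 1.26-fold.

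*Sdf2l1* moved the most, from 271, 275 and 271 RPKM in Pb with DMSO to 349, 344 and 333 with GSK343 (0.33 ± 0.083, adjusted p = 0.0221). *Dnajb11*, the gene of ERdj3, which hands unfolded proteins to BiP and works beside the *Sdf2l1* product, went from 235, 243 and 230 RPKM to 278, 266 and 274 (0.21 ± 0.055, adjusted p = 0.0263). *Dnajc3* went from 121, 121 and 112 RPKM to 140, 132 and 135 (0.20 ± 0.050, adjusted p = 0.0211). In none of the 3 did a library with GSK343 overlap one with DMSO. *Hsp90b1* was at 2222, 2244 and 2207 RPKM with DMSO and 2429, 2537 and 2606 with GSK343 (0.18 ± 0.055, adjusted p = 0.0485), and *Dnajc10* at 75.3, 74.0 and 71.7 and then 84.3, 79.6 and 84.4 (0.17 ± 0.050, adjusted p = 0.0453). These lay closest to the threshold among the 8, and *Spcs1* stood just outside it (0.17, adjusted p = 0.0504).

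*Calr* was at 1414, 1441 and 1388 RPKM in Pb with DMSO and 1658, 1640 and 1691 with GSK343 (0.23 ± 0.059, adjusted p = 0.0230). *Pdia3*, whose product acts on the glycoproteins that calreticulin holds, was at 532, 509 and 524 RPKM and then 617, 575 and 623 (0.21 ± 0.061, adjusted p = 0.0375). *Ssr2* was at 490, 460 and 481 RPKM and then 563, 547 and 554 (0.22 ± 0.062, adjusted p = 0.0377). All GSK343 libraries of these genes lay above all DMSO libraries. That held for 20 of the 49 genes in Pb and the reverse for 2 (*Ern1* and *Ppp1r15a*), where 18.8% of all genes were entirely above and 15.3% entirely below. In actB, 11 were entirely above and 4 below, where 18.3% and 7.52% of all genes were.

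*Hspa5* itself was not called in either cell type. It was at 952, 1022 and 963 RPKM in Pb with DMSO and 1054, 1107 and 1097 with GSK343 (0.15 ± 0.055, adjusted p = 0.101), with no overlap, and its fold change in actB was also 0.15 (adjusted p = 0.118), with overlap. *Ern1* was at 55.4 ± 1.98 and 51.0 ± 3.48 RPKM in Pb (-0.12, adjusted p = 0.549) and the other sensors were not called either. *Trib3* was at 7.11, 5.64 and 6.89 RPKM in actB with DMSO and 2.72, 4.86 and 3.79 with GSK343, which did not overlap, and at 4.34, 2.79 and 3.54 and then 1.82, 3.44 and 1.91 in Pb, which did. Its log2 fold changes of -0.78 ± 0.24 and -0.56 ± 0.24 were not called by limma (adjusted p = 0.0589 and 0.152). In actB it was called in 8 of 16 other settings (adjusted p 0.00270 to 0.110) and without GSK343 replicate 2 of actB (0.0314) or of Pb (0.0263). In Pb it was called in 2 of 16 (0.00257 to 0.241) and without GSK343 replicate 2 of Pb (0.0291).

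The calls in Pb were sensitive to single libraries, and each of the 8 was lost without at least 3 of the 6 Pb libraries left out in turn. Their number fell from 8 to 0 without Pb DMSO replicate 3, Pb GSK343 replicate 1 or Pb GSK343 replicate 3, to 1 without Pb DMSO replicate 1, to 3 without Pb DMSO replicate 2 and to 5 without actB DMSO replicate 3. edgeR called 6 higher and 0 lower (2 lower at an unadjusted p under 0.05), where 7.77% and 5.69% of all genes were called, the same genes as limma but for *Hsp90b1* (adjusted p = 0.0544) and *Dnajc10* (0.0572). With the replicate number as a block limma called 13 higher and none lower, where 13.6% and 10.7% of all genes were called, adding *Pdia4*, *Edem2*, *Syvn1*, *Sec61a1* and *Spcs1*. edgeR with the same block called 10 higher and 1 lower, where 14.3% and 13.3% of all genes were called. The 1 lower was *Ppp1r15a*, at 11.5, 11 and 11.1 RPKM in Pb with DMSO and 9.52, 9.75 and 9.73 with GSK343. Its log2 fold change of -0.21 ± 0.092 was not called by limma (adjusted p = 0.173, and 0.125 with the block) but was called by edgeR with the block (0.0401) and in limma's fit of the compared groups alone (0.0380). *Sdf2l1*, *Dnajb11* and *Dnajc3* were called in all 16 other settings, with log2 fold changes of 0.28 to 0.33, 0.19 to 0.25 and 0.17 to 0.24. With single libraries left out, however, *Sdf2l1* was lost without any 1 of the 6 Pb libraries (adjusted p 0.0521 to 0.0778 by limma). *Dnajb11* was lost without 4 of them and *Dnajc3* without 3. The log2 fold changes in these fits moved little, being 0.31 to 0.35 for *Sdf2l1*, 0.19 to 0.23 for *Dnajb11* and 0.17 to 0.22 for *Dnajc3*. The share of all genes called with 1 library left out is not given, so the losses cannot be set against those of other genes. With quantile normalization, which fixes the values at the top of each library, the log2 fold change of *Calr* was 0.057 (adjusted p = 0.619) and that of *Hsp90b1* 0.39 (0.00323).

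**Figure D5:**
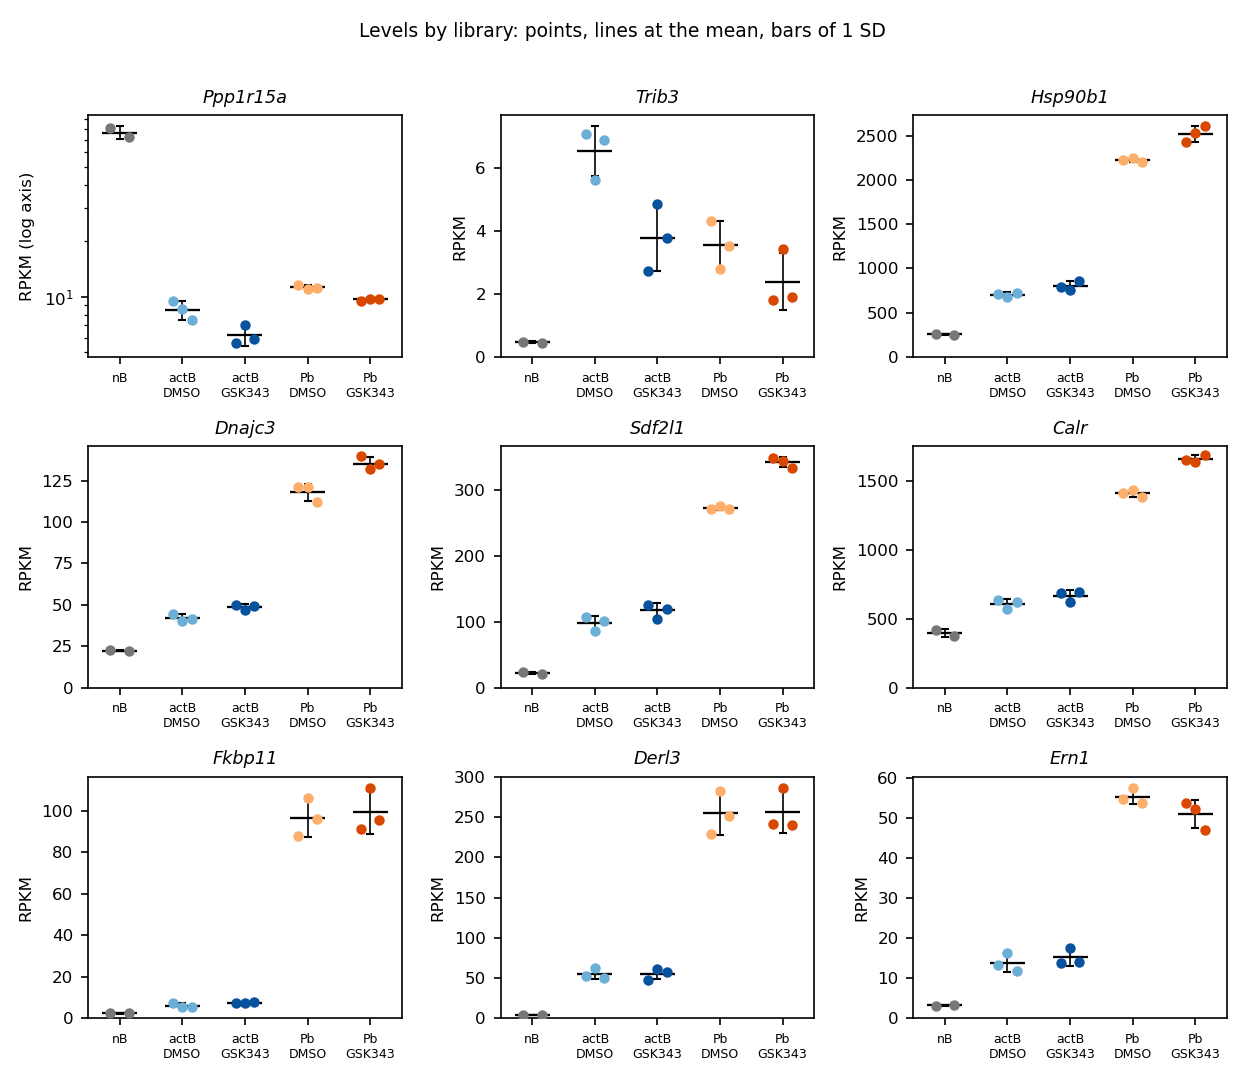
RPKM (vertical axes, from 0 except for *Ppp1r15a*, which has a log axis) of 9 genes in each library of the 5 groups (horizontal axes), with lines at the mean and bars of 1 SD. For *Sdf2l1* the Pb libraries with GSK343 (333 to 349) lie above those with DMSO (271 to 275), and for *Fkbp11* and *Derl3* the Pb libraries of the 2 treatments overlap.

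No difference between the inhibitor's effects in Pb and in actB was called for any of the 49 genes by limma (0 of 49, smallest adjusted p = 0.532), where 0.0974% of all genes were called with a higher and 0.150% with a lower effect in Pb. At an unadjusted p under 0.05, 1 gene passed, *Edem3*, whose log2 fold change was 0.25 in actB and 0.036 in Pb. edgeR likewise called 0 of 49 (1 at an unadjusted p under 0.05), and so did every other setting. *Dnajc3* moved by 0.21 and 0.20 in actB and Pb and *Hsp90b1* by 0.20 and 0.18. The differences ranged from -0.28 for *Fkbp11* to 0.30 for *Pdia5*.

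Among the wider lists, 1 of 14 genes of the integrated stress response was called lower with GSK343 in actB and 2 of 14 in Pb, and none higher. Called or not, 13 of the 14 log2 fold changes were below 0 in each cell type, where 4746 of the 11299 genes tested were in actB and 5523 in Pb. The medians were -0.15 and -0.21, against 0.028 and 0.003 over all genes. *Asns*, the asparagine synthetase gene and a target of ATF4, was called lower in both, from 59.1 ± 9.47 to 31.9 ± 5.01 RPKM (SD, n = 3) in actB (-0.88 ± 0.16, adjusted p = 0.00504) and from 78.6 ± 3.31 to 53.4 ± 11.7 in Pb (-0.58 ± 0.16, adjusted p = 0.0339). *Cebpg*, the gene of a factor that pairs with ATF4, was called lower in Pb (-0.26, adjusted p = 0.0424). Over all genes tested, limma called 8.20% higher and 2.16% lower in actB, and 7.90% and 5.0% in Pb. Of the other 7 lists, ER oxidation had 2 of 8 called higher in actB and 3 of 8 in Pb, with *Txndc5* and *Qsox1* in both. Its median log2 fold changes were 0.003 and 0.044, and its lowest were those of *Ero1l* (-0.47 and -0.43). At an unadjusted p under 0.05 by limma, 1 of the 8 was lower in actB and 2 in Pb. Glycoprotein trimming had 1 and 2 of 7 called higher, the cargo receptor gene *Mcfd2* in both, and the oligosaccharyltransferase 0 and 1 of 12 (1 and 5 at an unadjusted p under 0.05). The signal recognition particle had 1 of 8 called lower in actB (*Srp72*, -0.24) and none in Pb. For the COPII coat, the further genes of ER-associated degradation and the partners of IRE1, limma and edgeR called 0 genes in either cell type. At an unadjusted p under 0.05 limma had 2, 1 and 2 of them in actB and 0, 0 and 1 in Pb, and edgeR 1, 1 and 2 and then 0, 0 and 1. *Xbp1* was at 190 ± 6.89 and 220 ± 16.9 RPKM in actB (0.21, adjusted p = 0.0534) and at 955 ± 55.7 and 1028 ± 38.3 in Pb (0.11, adjusted p = 0.303).

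Some markers of cell state also changed with the inhibitor. Over all genes tested, 8.20% were called higher and 2.16% lower in actB, and 7.90% and 5.0% in Pb. In Pb, 4 of 8 B cell markers were called lower with GSK343 (*Ms4a1*, *Pax5*, *Fcer2a* and *Cr2*, -0.63 to -1.56), and their sum was 935 to 954 RPKM with DMSO and 758 to 901 with GSK343. Of 5 plasma cell markers, *Sdc1* was called higher (0.89), *Irf4* lower (-0.25) and 3 were not called. The sums of the 5 overlapped (2191 to 2238 and 2167 to 2361 RPKM). In actB, *Sdc1* and *Jchain* were called higher (0.41 and 0.37). The plasma cell markers summed to 293 to 338 RPKM with DMSO and 346 to 432 with GSK343. Of 8 B cell markers, 1 was called lower in actB, and their median log2 fold change was -0.076. The 7 myeloid markers summed to 194 to 239 RPKM in nB. In actB they summed to 4.12 to 5.44 RPKM with DMSO and 8.31 to 14.1 with GSK343, most of it from *Itgam* alone (3.50 to 4.66 and 6.60 to 12.8 RPKM). Their sums in Pb were 0.465 to 0.913 and 1.01 to 1.26 RPKM. Of these markers, *Itgam* and *Adgre1* were called higher with GSK343 in actB. *Adgre1* was low there, with a mean of 0.147 RPKM under DMSO against 0.437 under the inhibitor. In Pb 0 of 7 were called, which decides little, because all but *Itgam* passed the filter on low levels only through nB. *Lyz2*, the highest of the 7 in Pb, had means of 0.339 RPKM under DMSO and 0.601 under the inhibitor. *S100a8* and *S100a9* had no reads in cultured groups. The 6 T and NK cell markers summed to 21.9 to 23.6 RPKM in nB and at most 0.554 in any cultured library. The erythroid markers summed to 29.1 to 133 RPKM in nB, 8.78 to 18.5 in actB and 0.916 to 2.22 in Pb, and *Hbb-b1*, the 1 erythroid marker tested, was not called with GSK343 in either cell type. The part of cell composition in the changes of the 49 genes was not tested.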

How the data were processed

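RNA was sequenced from 15 libraries of 5 groups, after polyA selection with a stranded kit, as 50 bp paired ends. According to the methods, the authors aligned them with TopHat2 (genome build mm9), counted reads on exons of each Entrez gene (use of strand not given in the sources used here), and deposited RPM per library, in a table whose name says RPKM. Values were checked to be whole multiples of 1 read (100.0% within 0.05 reads), and RPKM was computed from RPM and gene length. The 92 genes without a symbol were left out.

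Differences were tested with limma 3.58.1 in R 4.3.3 (moderated test with a mean-variance trend, 1 fit over 14 libraries) on log2(RPKM + 0.25), which understates changes of low genes. edgeR 4.0.16 on recovered counts was an alternative. The statistics were checked on simulated counts with known fold changes. These held no difference between replicate numbers, so the check does not cover its effect on the calls. The design expected this unit, and the study itself used edgeR. The labels call the replicates m1 to m3, and p-values measure the spread between these libraries. Same-numbered libraries of the cultured groups deviated together from their group means (r = 0.158 to 0.713 over 3 numbers, 6 library pairs each). Pairs of different numbers gave -0.603 to 0.37 (36 pairs). Number 2 (0.435 to 0.713) stood clear of these, whereas 1 (0.158 to 0.502) and 3 (0.219 to 0.356) overlapped them. Whether all the numbers pair the samples is thus not settled, and blocked values are given where they change a call.

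The 49 genes and the other lists were chosen with earlier results of these data known. Values of every library are given for the sensors, the stress effectors, genes called with GSK343, and the genes of the highest and lowest change from actB to Pb in each branch, leaving out genes under a mean of 2 RPKM in all groups. *Hspa5*, *Spcs1* with GSK343 and *Xbp1* were added after values were seen, as were *Derl3*, *Pdia5* and other genes given by their fold changes. Reads of the genes *Ddit3*, *Ppp1r15a*, *Hsp90b1*, *Manf*, *Pdia3*, *Pdia6*, *Syvn1*, *Derl2*, *Sec63* and *Spcs1* may include those of a gene opposite.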

Additional observations from a re-analysis of the deposited data

How the results depend on the processing

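The counts of the 49 genes called at the steps of differentiation moved little with the processing, being 45 to 47 from nB to actB, 47 to 49 from actB to Pb and 48 to 49 from nB to Pb, over all settings and with any 1 library left out. The counts with GSK343 did move, and the cause was not tested except where the setting itself changes how many genes are tested or how libraries enter. In actB, 4 genes became 2 with no filter on low levels, 0 in limma's fit of the compared groups alone (in the fit of all groups 14 were higher and 3 lower at an unadjusted p under 0.05, and edgeR called 3), 21 with array weights, 13 with the replicate number as a block, 9 by edgeR with that block and 10 with replicate 2 left out of every cultured group, a setting chosen after seeing the data. In Pb, 8 became 3 with no filter, 4 by limma without the trend, 15 with array weights and 13 with the replicate block. The block also raised the share of all genes called higher, from 8.20% to 14.7% in actB and from 7.90% to 13.6% in Pb by limma. For array weights, no filter, no trend, the compared groups alone and replicate 2 left out, the share of all genes is not given. Those counts therefore do not show a response particular to the 49 genes. With 1 library left out at a time the counts were 1 to 7 in actB and 0 to 9 in Pb, and 0 for the difference between cell types. The log2 fold change of *Edem3* in Pb, 0.036 and not called, became -0.019 without Pb DMSO replicate 3 and -0.00042 without Pb GSK343 replicate 1, and reached 0.069 without Pb GSK343 replicate 2. The block changed no call of the 49 genes from actB to Pb. It could not be applied to comparisons with nB, where replicates 1 and 2 are 1 library. Depth limits *Pdia5*, with as few as 2 reads in a library, and *Trib3*, with as few as 21.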
